A study of Mus musculus with 14 samples.

Results

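The 44 collagen genes were followed here in whole mouse ear tissue. They are the rows of the deposited table whose gene symbol reads Col, a number, a and a number, 44 of the 24035 rows that name a gene. By the known place of their proteins, 8 were classed as fibrillar, 9 as collagens of basement membranes and their zone, 7 as cartilage collagens and 20 as others. Col17a1, of the hemidesmosomes of basal keratinocytes, was counted among the others as a transmembrane collagen, so the sums of these classes depend on that choice. Gene expression was measured by mRNA sequencing and given as TPM, a share of all transcripts that divides by gene length and has the same total in each sample.

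By their labels, the mice of all groups had lost their Langerhans cells, which are epidermal antigen-presenting cells. LC-DTA mice lacked them for the long term, whereas LC-DTR mice lost them through diphtheria toxin (DT) given 3 days before. Ears received 20 µl on each side, either vehicle (4 parts acetone to 1 part olive oil) or 1% croton oil, a skin irritant, and were collected at 6 h. The groups were LC-DTA croton oil (n = 4), LC-DTA vehicle (n = 3), LC-DTR croton oil (n = 4) and LC-DTR vehicle (n = 3). The labels named the genotypes only as DTA and DTR and gave no promoter, sex or age. Whether the samples were separate animals was not stated, so p-values measure the spread between these samples, which may be technical. Genotype, DT treatment and the label numbers, 10575 to 10797 in LC-DTA and 10825 to 11098 in LC-DTR samples, cannot be told apart. Ears with intact Langerhans cells were not analysed here.

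Collagens are secreted or membrane proteins of 3 chains wound into a triple helix, and a type can combine chains from different genes. Type I and type III collagen form the fibrils that give the dermis its strength, with type V inside the fibrils. Type IV chains form the network of basement membranes, type VII anchors the epidermis to the dermis, and type XVII spans the membrane of basal keratinocytes in hemidesmosomes. The ear also holds a cartilage plate, whose fibrils are built of types II, IX and XI. In skin most collagen mRNA is made by fibroblasts, whereas types VII and XVII are also or mainly products of keratinocytes. In whole tissue, fewer cells of a type and less mRNA per cell cannot be told apart.

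Chains that share a molecule can sit next to each other in the genome. The type IV genes lie in such pairs, head to head on opposite strands, and the pairs are shown because their members are compared below. Col4a1 (chromosome 8, 11198423 to 11312826, minus strand) and Col4a2 (chromosome 8, 11312805 to 11449287, plus strand) overlapped by 22 bases at their annotated starts. Col4a4 (chromosome 1, 82448423 to 82586849, minus strand) and Col4a3 (chromosome 1, 82586921 to 82722059, plus strand) had 71 bases between their starts, and Col4a6 and Col4a5 on chromosome X had 1308. Gene positions, and with them the starts of these pairs, are from GENCODE M21 on GRCm38, the build also called mm10. The sequences, and the start regions searched for motifs below, are from RefSeq on GRCm38.p6. The sequences below are given on the plus strand, 5′ to 3′, and cover the shared bases at chr8:11312805-11312826 and the bases between the starts at chr1:82586850-82586920. Capitals mark a GC box, GGGCGG.
Col4a1 and Col4a2: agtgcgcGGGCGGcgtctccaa
Col4a4 and Col4a3: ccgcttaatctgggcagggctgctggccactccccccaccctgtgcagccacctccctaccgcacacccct

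Start regions were given for 35 of the 44 collagen genes and not for 9. In the 250 bases before the start, on either strand, GGGCGG was found in 21 of the 35 (60.0%) and in 35.4% of 27025 genes of the table, CCAAT in 13 (37.1%) and 37.5%, and TATAAA in 5 (14.3%) and 14.3%. A gene was counted if any start region given for it matched, and the comparison was with all genes there, whether tested here or not. These are matches of letters and not sites of binding. Col1a2, Col4a1, Col4a2, Col5a3, Col7a1 and Col17a1 were among those with CCAAT, and Col3a1 and Col17a1 among those with TATAAA.

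Between 13733 and 14332 genes per sample reached 1 TPM, and the depth of sequencing was unknown because TPM keep none. Cd207, a Langerhans cell marker, stayed between 0.0567 and 1.88 TPM in all 14 samples and was not tested. Its mean was 0.529 TPM in LC-DTA croton oil, 0.290 in LC-DTA vehicle, 1.18 in LC-DTR croton oil and 0.259 in LC-DTR vehicle ears. Epcam, the other marker listed for these cells, averaged 474, 214, 531 and 221 TPM in the same order. It was called higher with croton oil in both genotypes, by 1.14 in LC-DTA and 1.26 in LC-DTR ears. With Cd207 at 1.88 TPM or less in these samples, Epcam is not read here as a measure of Langerhans cells. Ear skin and cartilage markers were present, with the keratinocyte markers summing to 21904 TPM or more in each sample, and the cartilage markers Cytl1 and Chad in every sample, while Matn1, another cartilage gene, was at 0.0711 TPM or less in all 14. LC-DTR croton oil samples 2 and 3 stood apart from samples 1 and 4 on the first principal component, at 5.26 and 8.06 against 28.5 and 28.6. LC-DTR vehicle sample 3 stood apart from samples 1 and 2 of its group, both in the dermal collagens and over all genes tested. On the second principal component it was at 5.85, against -10.1 and -19.6. Its correlation across genes was 0.987 with sample 1 and 0.986 with sample 2, which had 0.994 with each other. The LC-DTR croton oil results that lose their call without LC-DTR vehicle sample 3 are given both ways.

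The test took genes that reached 1 TPM in 3 or more samples, which 40 of the 44 did and 4 did not, namely Col24a1 (0.178 to 1.20 TPM), Col6a5 (0.0247 to 0.817 TPM), Col19a1 (0.0332 to 0.146 TPM) and Col6a4 (0 to 0.158 TPM). At 1 TPM or more in all 14 samples were 34 genes. All collagen genes together held 0.484 to 0.651% of the TPM in LC-DTA croton oil ears, 0.729 to 0.968% in LC-DTA vehicle ears, 0.223 to 0.304% in LC-DTR croton oil ears and 0.298 to 0.566% in LC-DTR vehicle ears. Averaged over the 14 samples, fibrillar genes made up 54.3% of this total, others 37.8%, basement membrane genes 5.95% and cartilage genes 2.01%. Col3a1, Col1a2, Col17a1 and Col1a1 led, at 20.05, 18.1, 17.04 and 12.4% of the collagen TPM.

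Summed over a class, the fibrillar genes reached 3223, 4009, 2663 and 2672 TPM in LC-DTA croton oil ears, 4671, 4322 and 6399 in LC-DTA vehicle ears, 782, 1293, 1298 and 741 in LC-DTR croton oil ears and 1178, 991 and 3329 in LC-DTR vehicle ears. Every LC-DTA sample lay above every LC-DTR sample of the same treatment, and LC-DTR vehicle sample 3 lay within the range of the LC-DTA croton oil samples. The basement membrane genes summed to 341, 349.5, 333 and 303 TPM in LC-DTA croton oil ears, 372, 386 and 442 in LC-DTA vehicle ears, 255, 216, 250.3 and 192 in LC-DTR croton oil ears and 224, 189 and 268 in LC-DTR vehicle ears. The cartilage genes summed to 105, 101, 91.9 and 72.4 TPM in LC-DTA croton oil ears, 140.3, 167 and 164 in LC-DTA vehicle ears, 71.8, 65.4, 77.3 and 62.96 in LC-DTR croton oil ears and 98.3, 73.1 and 100.2 in LC-DTR vehicle ears. Here the LC-DTA vehicle samples lay above all others, and the LC-DTR croton oil samples overlapped both the LC-DTA croton oil and the LC-DTR vehicle samples. The other collagens summed to 2014, 2048, 1933 and 1793 TPM in LC-DTA croton oil ears, 2414, 2415 and 2676 in LC-DTA vehicle ears, 1447, 1152, 1409.7 and 1238 in LC-DTR croton oil ears and 1907, 1725 and 1966 in LC-DTR vehicle ears, with no overlap between croton oil and vehicle in either genotype.

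**Figure D1:**
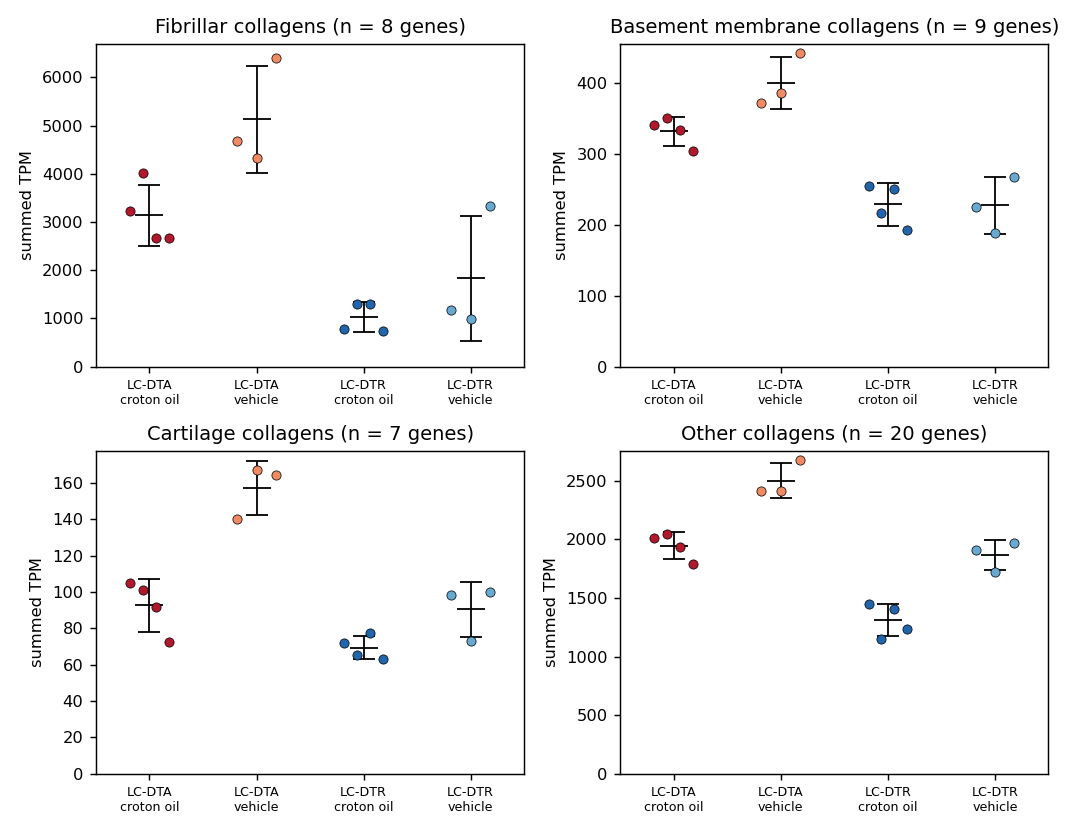
Summed TPM of the collagen genes of each class in each sample (points), by group, with the mean and SD (bars). The fibrillar sum was highest in the LC-DTA vehicle samples, and LC-DTR vehicle sample 3, at 3329 TPM, lay apart from the 1178 and 991 TPM of its group.

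Log2 differences below are on the log2(TPM + 1) scale, which understates changes of low genes, and are given ± SE with the p of limma adjusted by Benjamini-Hochberg over 14693 genes. Calls are those with an adjusted p under 0.05. The vehicle samples of a genotype enter its croton oil comparison and the comparison of genotypes, so the results are not independent of each other.

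Croton oil against vehicle in LC-DTR ears gave lower levels of 19 collagen genes and a higher level of 1, Col4a1. Together 20 of the 40 tested were called, against 51.6% of all genes, and 19 were lower, against 29.5% of all genes called lower and 22.1% called higher. The share called was thus close to that of all genes. The split of all genes moved with the scaling, to 3856 higher (26.2%) and 3732 lower (25.4%) with median ratios and 3373 (23.0%) and 4112 (28.0%) with quantile normalization, while 1 collagen was higher in both and 16 and 18 were lower. The median log2 difference was -0.43 over the 40 collagens and -0.060 over all genes tested. Lower were 3 fibrillar genes of 7 tested (Col5a1, Col5a3 and Col27a1), 5 basement membrane genes of 9 (Col4a3, Col4a4, Col4a5, Col7a1 and Col15a1), 2 cartilage genes of 7 (Col9a1 and Col11a2) and 9 others of 17. The groups did not overlap for 9 of the 40, against 47.7% of all genes. Without LC-DTR vehicle sample 3, 10 collagens were called, 9 lower and 1 higher, against 44.3% of all genes called, 25.8% lower and 18.5% higher, and of the fibrillar genes 1 was called. Of the 20 calls, 8 were kept under each of 26 alternatives in which the gene was tested (Col4a1, Col6a2, Col6a3, Col7a1, Col8a1, Col8a2, Col16a1 and Col27a1), and the other 12 were lost in at least 1 fit without a single library.

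Croton oil against vehicle in LC-DTA ears gave lower levels of 22 collagen genes and a higher level of 1, Col23a1. These 23 of 40 stood against 58.7% of all genes, and the 22 lower against 34.5% of all genes called lower and 24.2% called higher, again a total share close to that of all genes. With median ratios 4214 of all genes were higher (28.7%) and 4355 lower (29.6%), and with quantile normalization 3995 (27.2%) and 4624 (31.5%), while 1 collagen was higher in both and 17 and 23 were lower. The median was -0.46 over the collagens and -0.090 over all genes. Lower were 4 fibrillar genes (Col1a1, Col5a1, Col5a2 and Col5a3), 6 basement membrane genes (Col4a2 to Col4a6 and Col7a1), 5 cartilage genes (Col9a1, Col9a2, Col9a3, Col11a1 and Col11a2) and 7 others. The groups did not overlap for 28 of 40, against 63.0% of all genes. A fit without LC-DTR vehicle sample 3, which here enters through the shared spread alone, called 26 collagens, 1 higher and 25 lower, against 60.7% of all genes and 25.1 and 35.7% in these directions. Without LC-DTA vehicle sample 3, 13 collagens were called and no fibrillar gene, against 52.6% of all genes, and without LC-DTA croton oil samples 3 and 4, 12 collagens and again no fibrillar gene, against 47.2% of all genes. Kept under each of the 26 alternatives that tested them were 12 calls (Col4a3, Col4a4, Col4a6, Col6a1, Col7a1, Col8a2, Col9a2, Col9a3, Col11a2, Col16a1, Col20a1 and Col22a1), and 10 others were lost in at least 1 fit without a single library. Those 10 were Col1a1, Col4a2, Col4a5, Col5a1, Col5a2, Col5a3, Col6a2, Col11a1, Col17a1 and Col23a1.

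Under vehicle, 27 collagen genes were higher in LC-DTA than in LC-DTR ears and 0 were lower, with 30 higher and 0 lower at an unadjusted limma p under 0.05, against 28.7 and 8.72% of all genes. Of all genes 24.5% were called, 19.1% higher and 5.34% lower in LC-DTA. The median was 0.66 over the 40 collagens and 0.097 over all genes. All 7 fibrillar genes tested were higher, as were 4 basement membrane genes (Col4a1, Col4a2, Col15a1 and Col18a1), 5 cartilage genes (Col9a1, Col9a2, Col9a3, Col11a1 and Col11a2) and 11 others. The groups did not overlap for 29 of 40, against 42.5% of all genes. The split of all genes depended on the scaling, with 2810 higher and 785 lower as deposited, 1813 (12.3%) and 1537 (10.5%) after scaling by median ratios, and 1616 (11.0%) and 1772 (12.1%) after quantile normalization, which moved the median of all genes by -0.11. Under these scalings 24 and 22 collagens were higher and 0 lower. Without LC-DTR vehicle sample 3, 25 collagens were higher and 0 lower, against 25.2% of all genes called, 18.5% higher and 6.68% lower, and without LC-DTR vehicle sample 2, 16 were, against 12.1% of all genes called. Under each of the 26 alternatives 16 calls were kept, those of Col1a1, Col1a2, Col3a1, Col5a1, Col5a2, Col5a3, Col4a1, Col4a2, Col9a1, Col9a3, Col11a2, Col6a1, Col6a2, Col6a3, Col12a1 and Col14a1, and the other 11 were lost in at least 1 fit without a single library.

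After croton oil, 27 collagen genes were higher in LC-DTA than in LC-DTR ears and 2 were lower, Col4a6 and Col20a1. Of all genes 52.3% were called, 34.3% higher and 18.0% lower in LC-DTA. The median was 0.60 over the collagens and 0.093 over all genes. All 7 fibrillar genes tested were again higher, with 4 basement membrane genes, 4 cartilage genes and 12 others. The groups did not overlap for 26 of 40, against 45.2% of all genes, and 24 collagen genes were higher under both treatments, which share no sample, against 10.2% of all genes. With median ratios the calls of all genes were 3721 higher (25.3%) and 3702 lower (25.2%), against 5041 and 2647 as deposited, and with quantile normalization 3740 (25.5%) and 3730 (25.4%), while 25 and 24 collagens were higher and 3 lower in both. Leaving out LC-DTR vehicle sample 3 gave 27 higher and 2 lower collagens, against 53.9% of all genes called, 35.2% higher and 18.7% lower. Of the 29 calls, 23 were kept under each alternative that tested them, and Col2a1, Col4a1, Col11a2, Col20a1, Col26a1 and Col28a1 were lost in at least 1 fit without a single library.

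**Figure D2:**
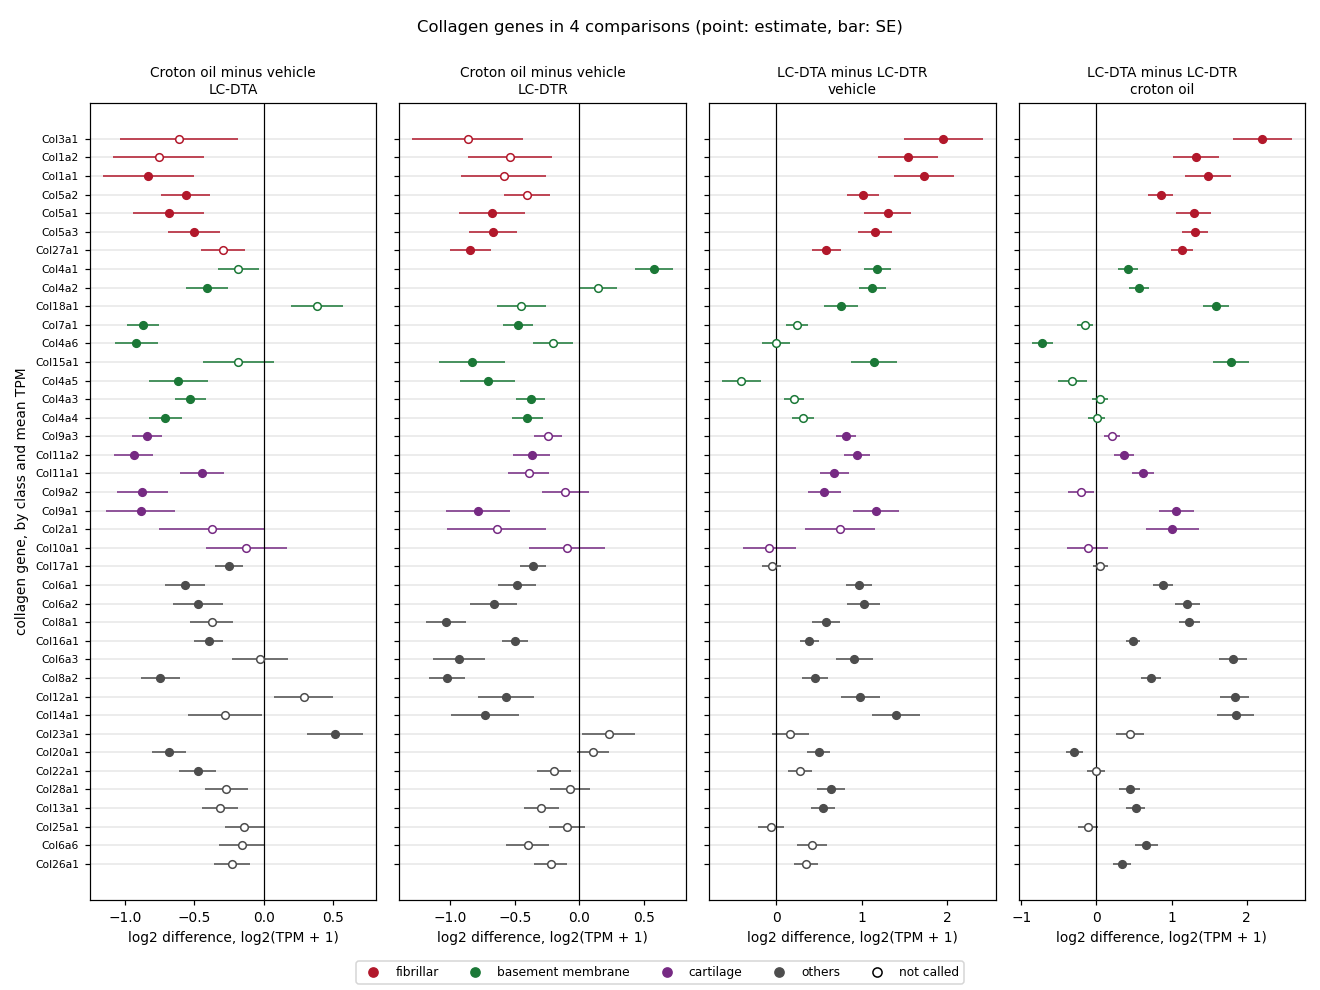
Log2 difference on the log2(TPM + 1) scale (points) and SE (bars) of the 40 collagen genes tested, by class, for croton oil minus vehicle in LC-DTA and LC-DTR ears and for LC-DTA minus LC-DTR ears under vehicle and after croton oil; filled points were called at an adjusted p under 0.05. The 7 fibrillar genes lie right of 0 in both comparisons of the genotypes, and all but Col4a1, Col4a2, Col18a1, Col12a1, Col20a1 and Col23a1 lie left of 0 in both croton oil comparisons.

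Among the fibrillar genes, Col3a1, Col1a2 and Col1a1 were far above the rest. Col3a1, the single chain of type III collagen (chromosome 1, 45311538 to 45349706, plus strand), was at 1325, 1626, 1068 and 1043 TPM in LC-DTA croton oil ears, 1822, 1629 and 2319 in LC-DTA vehicle ears, 196, 379.5, 353 and 198 in LC-DTR croton oil ears and 329, 272 and 1317 in LC-DTR vehicle ears. The LC-DTA samples lay above the LC-DTR samples under both treatments, and LC-DTR vehicle sample 3 lay within the range of the LC-DTA croton oil samples. The ratio of its mean TPM in LC-DTA to that in LC-DTR ears was 3.01 under vehicle and 4.49 after croton oil. The log2 difference of the fit, which averages log values and so gives LC-DTR vehicle sample 3 less weight, was 1.95 ± 0.46 (adjusted p = 0.00818) under vehicle and 2.21 ± 0.40 (adjusted p = 0.00044) after croton oil. Croton oil was not followed by a called change of Col3a1, with -0.61 ± 0.43 (adjusted p = 0.233) in LC-DTA, where the groups did not overlap, and -0.87 ± 0.43 (adjusted p = 0.105) in LC-DTR ears. Without LC-DTR vehicle sample 3, the LC-DTR value was -0.15 ± 0.27 (adjusted p = 0.672) and the genotype difference under vehicle 2.67 ± 0.29 (adjusted p = 0.000212). In that fit, Col3a1 was called lower after croton oil in LC-DTA ears, with the same log2 difference and an adjusted p of 0.0412.

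Type I collagen followed the same order of groups. Col1a1, its alpha-1 chain (chromosome 11, 94936224 to 94953042, plus strand), was at 705, 895, 574 and 557 TPM in LC-DTA croton oil ears, 1051, 1023 and 1585 in LC-DTA vehicle ears, 195, 299, 324 and 173 in LC-DTR croton oil ears and 279, 241 and 693 in LC-DTR vehicle ears. Col1a2, the alpha-2 chain (chromosome 6, 4504814 to 4541544, plus strand), was at 981, 1252, 826 and 888 TPM in LC-DTA croton oil ears, 1511, 1388 and 2134 in LC-DTA vehicle ears, 298, 509.6, 508 and 295 in LC-DTR croton oil ears and 436, 372 and 1112 in LC-DTR vehicle ears. Both were higher in LC-DTA ears under vehicle, Col1a1 by 1.73 ± 0.35 (adjusted p = 0.00379) and Col1a2 by 1.54 ± 0.35 (adjusted p = 0.00682), and after croton oil, Col1a1 by 1.48 ± 0.30 (adjusted p = 0.00116) and Col1a2 by 1.32 ± 0.30 (adjusted p = 0.0024). Col1a1 fell after croton oil in LC-DTA ears by 0.83 ± 0.33 (adjusted p = 0.0414), whereas the value of Col1a2 was -0.76 ± 0.33 (adjusted p = 0.0596), although neither gene's groups overlapped. In LC-DTR ears the values were -0.59 ± 0.33 (adjusted p = 0.149) for Col1a1 and -0.54 ± 0.33 (adjusted p = 0.183) for Col1a2, and -0.11 ± 0.26 (adjusted p = 0.75) and -0.051 ± 0.25 (adjusted p = 0.884) without LC-DTR vehicle sample 3.

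**Figure D3:**
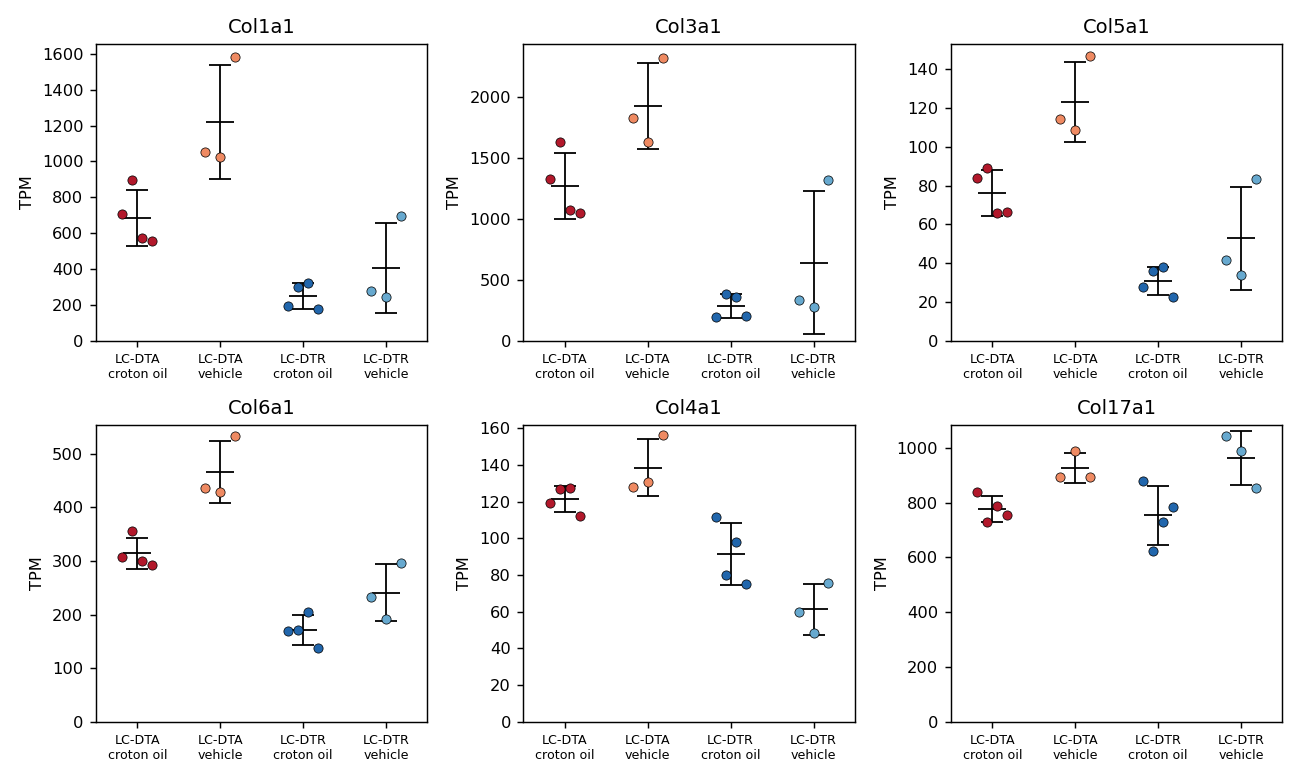
TPM of 6 collagen genes in each sample (points) by group, with the mean and SD (bars). Col1a1, Col3a1, Col5a1 and Col6a1 were higher in LC-DTA than in LC-DTR samples of the same treatment, whereas Col17a1 overlapped between the genotypes.

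Type V collagen, which sits inside type I fibrils and limits their width, was at lower levels. Col5a1 was at 83.8, 88.9, 65.95 and 66.5 TPM in LC-DTA croton oil ears, 114, 109 and 147 in LC-DTA vehicle ears, 27.5, 35.7, 37.98 and 22.5 in LC-DTR croton oil ears and 41.4, 33.9 and 83.2 in LC-DTR vehicle ears. It was higher in LC-DTA ears by 1.30 ± 0.27 (adjusted p = 0.00441) under vehicle and by 1.29 ± 0.23 (adjusted p = 0.000487) after croton oil, and lower after croton oil by 0.69 ± 0.25 (adjusted p = 0.0317) in LC-DTA and 0.68 ± 0.25 (adjusted p = 0.0382) in LC-DTR ears. Col5a2 averaged 86.9 ± 8.28 TPM (SD) in LC-DTA croton oil, 129 ± 17.9 in LC-DTA vehicle, 48.00 ± 7.99 in LC-DTR croton oil and 65.3 ± 20.97 in LC-DTR vehicle ears, and Col5a3 22.8 ± 1.73, 32.8 ± 3.90, 8.70 ± 2.01 and 14.6 ± 4.72 TPM. These other type V chains were higher in LC-DTA under vehicle (1.01 and 1.15) and after croton oil (0.85 and 1.32). Both fell after croton oil in LC-DTA ears (-0.56 and -0.51), and in LC-DTR ears Col5a3 did (-0.67). Without LC-DTR vehicle sample 3 neither Col5a1 nor Col5a3 was called in LC-DTR ears, with Col5a1 at -0.30 ± 0.20 (adjusted p = 0.234) and Col5a3 at -0.44 ± 0.17 (adjusted p = 0.0542). Col27a1, a minor fibrillar collagen known from cartilage, was at 15.7, 23.98, 22.1 and 17.5 TPM in LC-DTA croton oil ears, 20.7, 24.6 and 27.5 in LC-DTA vehicle ears, 9.58, 7.01, 9.47 and 7.47 in LC-DTR croton oil ears and 18.98, 14.5 and 14.1 in LC-DTR vehicle ears. It fell in LC-DTR ears by 0.85 ± 0.16 (adjusted p = 0.000639) with no overlap, and was the fibrillar gene still called there without vehicle sample 3, at -0.92 ± 0.18 (adjusted p = 0.00142). Its value in LC-DTA ears was -0.29 ± 0.16 (adjusted p = 0.127).

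Markers of fibroblasts were also mostly higher in LC-DTA than in LC-DTR ears, although after croton oil their sums overlapped. The 6 fibroblast markers summed to 1904 to 2765 TPM in LC-DTA croton oil ears, 3169 to 3740.0 in LC-DTA vehicle ears, 1738 to 2299.9 in LC-DTR croton oil ears and 1466 to 2200.2 in LC-DTR vehicle ears. Under vehicle 5 of 6 were higher in LC-DTA, Lum by 1.05, Dpt by 1.01 and Dcn by 0.79, and after croton oil 4 of 6 were, Lum by 1.24. Dcn, the largest part of the sums, averaged 1684 TPM in LC-DTA and 1645 in LC-DTR croton oil ears, and Dpt 339 and 194. Croton oil was followed by 3 lower and 0 higher of 6 in LC-DTA ears and by 0 lower and 1 higher in LC-DTR ears. The 5 markers of pericytes and smooth muscle summed to 92.2 to 125 TPM in LC-DTA croton oil ears, 150.4 to 186 in LC-DTA vehicle ears, 46.1 to 71.95 in LC-DTR croton oil ears and 80.6 to 113 in LC-DTR vehicle ears, with 4 of 5 higher in LC-DTA under vehicle and 3 after croton oil, and 3 of 5 lower with croton oil in LC-DTA and 4 of 5 in LC-DTR ears. Mast cell and macrophage markers were also called higher in LC-DTA, 5 of 5 and 4 of 4 under vehicle. After croton oil 4 of 5 and 3 of 4 were. Of 4 Schwann cell markers, 2 were called higher under vehicle and 1 after croton oil, the latter not above the share of all genes. Of all genes 19.1 and 34.3% were called higher in LC-DTA under vehicle and after croton oil. With croton oil 34.5 and 29.5% were called lower in LC-DTA and LC-DTR ears, and 24.2 and 22.1% higher. The marker counts here and below are to be read beside these shares. The part of any of these cell types in the collagen values was not tested.

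Of the type IV collagen genes, the common chains Col4a1 and Col4a2 were called higher in LC-DTA ears under both treatments. Col4a1 was at 119, 127, 127 and 112 TPM in LC-DTA croton oil ears, 128, 131 and 156 in LC-DTA vehicle ears, 112, 80.2, 97.8 and 75.1 in LC-DTR croton oil ears and 59.8, 48.1 and 75.7 in LC-DTR vehicle ears. Its partner Col4a2, which joins it in 1 molecule, was at 86.9, 90.9, 82.5 and 75.8 TPM in LC-DTA croton oil ears, 102, 107 and 128 in LC-DTA vehicle ears, 65.5, 54.2, 62.5 and 44.9 in LC-DTR croton oil ears and 50.7, 40.2 and 64.1 in LC-DTR vehicle ears. LC-DTA samples lay above LC-DTR samples of the same treatment for both genes. Under vehicle Col4a1 was higher in LC-DTA by 1.18 ± 0.16 (adjusted p = 0.000613) and Col4a2 by 1.12 ± 0.16 (adjusted p = 0.00076), and after croton oil by 0.42 ± 0.14 (adjusted p = 0.0188) and 0.57 ± 0.14 (adjusted p = 0.00353). With croton oil Col4a1 rose in LC-DTR ears by 0.57 ± 0.15 (adjusted p = 0.00528), the single collagen called higher there, and its lowest croton oil sample lay just under the highest vehicle sample. In LC-DTA ears the value of Col4a1 was -0.18 ± 0.15 (adjusted p = 0.301), and Col4a2 fell by 0.41 ± 0.15 (adjusted p = 0.0289). Endothelial markers, from cells that also make these chains, summed to 86.9 to 99.1 TPM in LC-DTA croton oil ears, 111 to 125 in LC-DTA vehicle ears, 75.8 to 96.6 in LC-DTR croton oil ears and 69.1 to 85.7 in LC-DTR vehicle ears, and 2 of 5 were higher in LC-DTA under vehicle. With croton oil 0 of 5 were higher and 3 lower in LC-DTA ears, and 2 higher and 1 lower in LC-DTR ears. Of all genes 24.2 and 22.1% were called higher in these comparisons, and 34.5 and 29.5% lower. The median over the 5 markers was -0.39 in LC-DTA and -0.011 in LC-DTR ears. Cdh5, an endothelial cadherin, rose with croton oil in LC-DTR ears by 0.62 and had a value of -0.11 in LC-DTA ears. Tek, another of the 5, went the other way in LC-DTR ears, averaging 2.93 TPM with croton oil and 4.75 with vehicle. The part of endothelial cells in the Col4a1 result was not tested.

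The chains Col4a3 to Col4a6, of more restricted basement membranes, were at lower levels. Col4a3 averaged 0.828 ± 0.202 TPM (SD) in LC-DTA croton oil, 1.63 ± 0.172 in LC-DTA vehicle, 0.757 ± 0.0414 in LC-DTR croton oil and 1.30 ± 0.295 in LC-DTR vehicle ears, and Col4a4 averaged 0.690 ± 0.101, 1.76 ± 0.0959, 0.694 ± 0.225 and 1.24 ± 0.311 TPM in these groups. Both were near the filter of 1 TPM, and all LC-DTA croton oil samples lay below all LC-DTA vehicle samples. They fell after croton oil in LC-DTA by 0.53 ± 0.11 (adjusted p = 0.00112) and 0.71 ± 0.12 (adjusted p = 0.000211), and in LC-DTR by 0.38 ± 0.11 (adjusted p = 0.012) and 0.40 ± 0.12 (adjusted p = 0.0119). The LC-DTR values without vehicle sample 3 were -0.33 ± 0.13 (adjusted p = 0.0484) and -0.34 ± 0.13 (adjusted p = 0.055), so that Col4a4 was no longer called. Neither was called between the genotypes. Col4a5, at 7.001 ± 1.56, 11.1 ± 0.798, 9.14 ± 2.83 and 15.3 ± 3.70 TPM in the same order of groups, fell in both genotypes, by 0.62 ± 0.21 (adjusted p = 0.0221) in LC-DTA and 0.71 ± 0.21 (adjusted p = 0.0125) in LC-DTR ears, where it was not called without vehicle sample 3, at -0.53 ± 0.22 (adjusted p = 0.0691). Col4a6 was at 9.14, 6.91, 6.71 and 9.10 TPM in LC-DTA croton oil ears, 15.98, 15.7 and 15.8 in LC-DTA vehicle ears, 10.7, 18.9, 12.7 and 13.4 in LC-DTR croton oil ears and 17.3, 13.9 and 16.6 in LC-DTR vehicle ears. It fell in LC-DTA ears by 0.92 ± 0.16 (adjusted p = 0.00022), where no croton oil sample overlapped a vehicle sample, and its value in LC-DTR ears was -0.21 ± 0.16 (adjusted p = 0.283). After croton oil it was lower in LC-DTA than in LC-DTR ears by 0.72 ± 0.14 (adjusted p = 0.000984).

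Col7a1, the anchoring fibril collagen, was at 27.4, 25.3, 23.4 and 31.1 TPM in LC-DTA croton oil ears, 44.5, 49.99 and 54.7 in LC-DTA vehicle ears, 26.7, 30.6, 35.04 and 27.3 in LC-DTR croton oil ears and 47.8, 38.96 and 39.1 in LC-DTR vehicle ears. It fell after croton oil by 0.87 ± 0.12 (adjusted p = 3.37e-05) in LC-DTA and 0.48 ± 0.12 (adjusted p = 0.00372) in LC-DTR ears, with no overlap in either, and was not called between the genotypes. Col15a1 and Col18a1, which attach basement membranes to the tissue beneath, were both higher in LC-DTA ears. Col18a1, the source of endostatin, was at 74.5, 71.5, 66.1 and 51.3 TPM in LC-DTA croton oil ears, 50.6, 48.8 and 49.8 in LC-DTA vehicle ears, 27.7, 15.05, 25.5 and 18.1 in LC-DTR croton oil ears and 24.2, 28.1 and 35.9 in LC-DTR vehicle ears. It was higher in LC-DTA by 0.76 ± 0.20 (adjusted p = 0.015) under vehicle and 1.59 ± 0.17 (adjusted p = 1.29e-05) after croton oil. Its croton oil values were 0.38 ± 0.19 (adjusted p = 0.0939) in LC-DTA, with no overlap, and -0.45 ± 0.19 (adjusted p = 0.0592) in LC-DTR ears. Col15a1 was at 13.6, 20.9, 19.5 and 13.98 TPM in LC-DTA croton oil ears, 16.5, 19.3 and 21.9 in LC-DTA vehicle ears, 5.54, 2.83, 4.84 and 3.74 in LC-DTR croton oil ears and 7.26, 5.27 and 13.7 in LC-DTR vehicle ears. It fell in LC-DTR ears by 0.83 ± 0.26 (adjusted p = 0.0148), and was not called without LC-DTR vehicle sample 3, at -0.49 ± 0.22 (adjusted p = 0.0883).

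Of the 7 cartilage genes tested, 5 were lower after croton oil in LC-DTA ears, against 34.5% of all genes. In LC-DTR ears 2 were lower, close to the 29.5% of all genes. The responses differed for 2 of the 7, Col9a2 and Col9a3, near the 23.1% of all genes. That call of Col9a2 was lost in at least 1 fit without a single library. Type II collagen, the main collagen of cartilage, was not the highest of the class here, with Col2a1 at 10.3 ± 5.69 TPM (SD) in LC-DTA croton oil, 12.4 ± 2.84 in LC-DTA vehicle, 4.21 ± 1.53 in LC-DTR croton oil and 7.48 ± 4.11 in LC-DTR vehicle ears. Its groups overlapped in all comparisons of 2 groups, and it was called in 1 comparison, higher in LC-DTA after croton oil by 1.01 ± 0.35 (adjusted p = 0.0284). Col9a3, a chain of type IX collagen on the surface of type II fibrils, was the highest of the class, at 33.03, 35.3, 29.7 and 26.7 TPM in LC-DTA croton oil ears, 51.96, 61.8 and 55.8 in LC-DTA vehicle ears, 26.6, 25.9, 29.8 and 24.8 in LC-DTR croton oil ears and 35.7, 27.1 and 33.1 in LC-DTR vehicle ears. The LC-DTA vehicle samples lay above the 3 other groups. Col9a3 fell in LC-DTA ears by 0.84 ± 0.11 (adjusted p = 2.59e-05), its value in LC-DTR ears was -0.24 ± 0.11 (adjusted p = 0.0785), and it was higher in LC-DTA under vehicle by 0.81 ± 0.12 (adjusted p = 0.000772). After croton oil the genotypes differed by 0.21 ± 0.10 (adjusted p = 0.0962).

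Col11a2 and Col11a1 encode chains of type XI collagen, the core of cartilage fibrils. Col11a2 was at 12.3, 12.5, 13.9 and 10.1 TPM in LC-DTA croton oil ears, 20.8, 27.8 and 24.4 in LC-DTA vehicle ears, 10.03, 8.34, 9.76 and 8.62 in LC-DTR croton oil ears and 15.2, 9.58 and 12.1 in LC-DTR vehicle ears. It fell by 0.94 ± 0.14 (adjusted p = 9.31e-05) in LC-DTA and 0.37 ± 0.14 (adjusted p = 0.0432) in LC-DTR ears, the second of which was not called without LC-DTR vehicle sample 3, at -0.37 ± 0.17 (adjusted p = 0.0882). Col11a1 was at 15.02, 16.8, 15.7 and 11.2 TPM in LC-DTA croton oil ears, 18.8, 20.8 and 20.9 in LC-DTA vehicle ears, 9.60, 9.63, 9.63 and 7.65 in LC-DTR croton oil ears and 12.9, 9.0 and 15.7 in LC-DTR vehicle ears. It fell in LC-DTA ears by 0.44 ± 0.16 (adjusted p = 0.0275) and was higher in LC-DTA by 0.68 ± 0.17 (adjusted p = 0.0116) under vehicle and 0.62 ± 0.15 (adjusted p = 0.00302) after croton oil. Of the other type IX chains, Col9a1 was at 13.2, 11.9, 9.46 and 9.96 TPM in LC-DTA croton oil ears, 19.05, 19.8 and 25.4 in LC-DTA vehicle ears, 3.08, 6.01, 6.69 and 4.001 in LC-DTR croton oil ears and 7.31, 6.54 and 14.6 in LC-DTR vehicle ears, and fell by 0.89 ± 0.25 (adjusted p = 0.00781) in LC-DTA and 0.79 ± 0.25 (adjusted p = 0.0179) in LC-DTR ears. Without LC-DTR vehicle sample 3, the highest of its group, the LC-DTR value of Col9a1 was -0.46 ± 0.22 (adjusted p = 0.108) and not called. Col9a2 was at 10.8, 9.93, 8.87 and 8.09 TPM in LC-DTA croton oil ears, 15.4, 22.96 and 16.4 in LC-DTA vehicle ears, 13.2, 8.82, 10.9 and 11.4 in LC-DTR croton oil ears and 16.7, 9.65 and 10.3 in LC-DTR vehicle ears, and fell in LC-DTA ears by 0.88 ± 0.18 (adjusted p = 0.00104), while its LC-DTR value was -0.11 ± 0.18 (adjusted p = 0.639). Col10a1, of hypertrophic cartilage, ranged over all samples from 2.19 to 6.09 TPM and was called in no comparison.

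The 12 cartilage markers, of which 10 were tested, summed to 603 to 785 TPM in LC-DTA croton oil ears, 955 to 1312 in LC-DTA vehicle ears, 747 to 1306 in LC-DTR croton oil ears and 628 to 1375 in LC-DTR vehicle ears. Cytl1, a large part of this sum, was not called in any comparison. With croton oil 4 of 10 markers were lower and 0 higher in LC-DTA ears, Chad by 1.16, and 3 were lower and 1 higher in LC-DTR ears. These lower counts were near the 34.5 and 29.5% of all genes. In LC-DTA ears 4 were higher and 0 lower under vehicle, and 2 higher and 1 lower after croton oil. Of all genes 19.1 and 34.3% were called higher there. How much cartilage each piece of ear held was not given in the labels, and its part in these values was not tested.

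Among the other collagens, type VI was the most abundant after Col17a1. Col6a1 was at 308, 357, 299.8 and 292 TPM in LC-DTA croton oil ears, 437, 429 and 534 in LC-DTA vehicle ears, 170.2, 171, 205 and 138 in LC-DTR croton oil ears and 233, 193 and 297 in LC-DTR vehicle ears. Col6a2 was at 334, 345, 293 and 273 TPM in LC-DTA croton oil ears, 417, 375 and 512 in LC-DTA vehicle ears, 138, 129.8, 165 and 107 in LC-DTR croton oil ears and 185, 173 and 297 in LC-DTR vehicle ears. Col6a3, the third chain of these beaded filaments of the dermis, was at 91.99, 117, 103 and 94.2 TPM in LC-DTA croton oil ears, 97.2, 85.95 and 132 in LC-DTA vehicle ears, 33.6, 23.3, 36.1 and 21.5 in LC-DTR croton oil ears and 51.5, 43.5 and 71.5 in LC-DTR vehicle ears. For all 3 chains the LC-DTA samples lay above the LC-DTR samples of the same treatment. They were higher in LC-DTA under vehicle by 0.97 ± 0.16 (adjusted p = 0.00122), 1.02 ± 0.19 (adjusted p = 0.00265) and 0.91 ± 0.21 (adjusted p = 0.0083), and after croton oil by 0.88 ± 0.13 (adjusted p = 0.000136), 1.21 ± 0.17 (adjusted p = 6.44e-05) and 1.82 ± 0.19 (adjusted p = 8.3e-06). After croton oil Col6a1 and Col6a2 fell in both genotypes, by 0.57 and 0.48 in LC-DTA and by 0.48 and 0.66 in LC-DTR ears. A fit without LC-DTR vehicle sample 3 gave LC-DTR values of -0.32 ± 0.14 (adjusted p = 0.0792) for Col6a1, no longer called, and -0.42 ± 0.15 (adjusted p = 0.042) for Col6a2. Col6a3 fell in LC-DTR ears by 0.93 ± 0.20 (adjusted p = 0.00166), and its value in LC-DTA ears was -0.03 ± 0.20 (adjusted p = 0.909).

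Type VIII collagen, a short-chain collagen that forms networks around vessels and in the eye, had the lowest adjusted p-values of the 40 collagens in the croton oil comparison of LC-DTR ears. Col8a1 was at 233, 266, 233 and 189 TPM in LC-DTA croton oil ears, 303, 272 and 317 in LC-DTA vehicle ears, 94.6, 91.4, 129 and 77.3 in LC-DTR croton oil ears and 199, 168 and 232 in LC-DTR vehicle ears. Col8a2 was at 55.00, 58.9, 45.6 and 44.5 TPM in LC-DTA croton oil ears, 87.3, 85.5 and 84.2 in LC-DTA vehicle ears, 27.2, 28.4, 40.9 and 26.2 in LC-DTR croton oil ears and 65.9, 54.6 and 67.7 in LC-DTR vehicle ears. The LC-DTR croton oil means were 0.491 and 0.489 times the LC-DTR vehicle means, and both genes fell there, Col8a1 by 1.03 ± 0.15 (adjusted p = 0.000134) and Col8a2 by 1.02 ± 0.14 (adjusted p = 6.62e-05), with no overlap. In LC-DTA ears Col8a2 fell by 0.75 ± 0.14 (adjusted p = 0.000474) and Col8a1 had a value of -0.37 ± 0.15 (adjusted p = 0.051), with no overlap for either. Both were, without LC-DTR vehicle sample 3, still called lower in LC-DTR ears, at -0.92 ± 0.17 (adjusted p = 0.000967) and -0.97 ± 0.16 (adjusted p = 0.000499).

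Collagens that coat fibrils, the FACIT group, included Col12a1, Col14a1 and Col16a1. Col14a1 was at 21.2, 27.5, 20.1 and 16.7 TPM in LC-DTA croton oil ears, 26.2, 23.2 and 28.3 in LC-DTA vehicle ears, 5.23, 4.77, 6.37 and 4.26 in LC-DTR croton oil ears and 7.56, 5.62 and 17.4 in LC-DTR vehicle ears. Col12a1 was at 27.5, 33.3, 23.02 and 28.5 TPM in LC-DTA croton oil ears, 22.2, 18.7 and 28.03 in LC-DTA vehicle ears, 7.60, 7.31, 8.91 and 4.98 in LC-DTR croton oil ears and 8.78, 9.05 and 16.4 in LC-DTR vehicle ears. No LC-DTA sample of either gene overlapped an LC-DTR sample of the same treatment, and after croton oil their ratios of mean TPM were 4.14 and 3.90, with log2 differences of the fit of 1.85 ± 0.24 (adjusted p = 4.76e-05) and 1.84 ± 0.20 (adjusted p = 1.18e-05). In LC-DTR ears both fell with croton oil, by 0.73 and 0.57, and neither was called without vehicle sample 3, at -0.30 ± 0.18 (adjusted p = 0.185) and -0.30 ± 0.19 (adjusted p = 0.229). Col15a1, listed with the basement membrane, had a ratio of 4.01 after croton oil, with a log2 difference of 1.79 ± 0.24 (adjusted p = 4.84e-05). Col16a1, at 75.8, 81.3, 86.4 and 71.7 TPM in LC-DTA croton oil ears, 99.6, 100.3 and 112 in LC-DTA vehicle ears, 58.6, 51.2, 65.6 and 49.5 in LC-DTR croton oil ears and 83.3, 69.6 and 85.7 in LC-DTR vehicle ears, fell by 0.40 ± 0.10 (adjusted p = 0.00438) in LC-DTA and 0.50 ± 0.10 (adjusted p = 0.00124) in LC-DTR ears without overlap.

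Col17a1, the hemidesmosome collagen (chromosome 19, 47646344 to 47692094, minus strand), was among the most abundant collagens and was not called between the genotypes. It was at 839, 731, 789 and 754 TPM in LC-DTA croton oil ears, 895, 989 and 894 in LC-DTA vehicle ears, 879, 622, 730.4 and 784 in LC-DTR croton oil ears and 1045, 989.6 and 854 in LC-DTR vehicle ears. The genotypes overlapped under both treatments, with -0.052 ± 0.11 (adjusted p = 0.765) under vehicle and 0.054 ± 0.096 (adjusted p = 0.658) after croton oil. It fell after croton oil by 0.25 ± 0.10 (adjusted p = 0.0492) in LC-DTA and 0.36 ± 0.10 (adjusted p = 0.0104) in LC-DTR ears, and by 0.44 ± 0.11 (adjusted p = 0.00607) in LC-DTR ears without vehicle sample 3. The 6 keratinocyte markers summed to 25085 to 28176 TPM in LC-DTA croton oil ears, 30947 to 32294 in LC-DTA vehicle ears, 21904 to 28409 in LC-DTR croton oil ears and 34909 to 42022 in LC-DTR vehicle ears. Of them 3 were lower and 1 higher in LC-DTA ears after croton oil, and 5 lower and 0 higher in LC-DTR ears. Of all genes 34.5 and 29.5% were called lower in these comparisons. The part of the keratinocyte markers in the Col17a1 values was not tested. Between the genotypes 1 of the 6 keratinocyte markers was lower in LC-DTA under vehicle, and 2 were higher and 1 lower after croton oil. Col23a1, another transmembrane collagen, averaged 18.2 ± 4.31 TPM (SD) in LC-DTA croton oil, 12.2 ± 0.702 in LC-DTA vehicle, 13.2 ± 4.20 in LC-DTR croton oil and 10.9 ± 1.91 in LC-DTR vehicle ears, and rose in LC-DTA ears by 0.51 ± 0.20 (adjusted p = 0.0424). The remaining members of the class, Col13a1, Col20a1, Col22a1, Col25a1, Col26a1, Col28a1 and Col6a6, were at 6.90 TPM or lower in each ear. Of these Col13a1 and Col28a1 were higher in LC-DTA under both treatments, Col6a6 and Col26a1 after croton oil, and Col22a1 fell with croton oil in LC-DTA ears by 0.48, while Col25a1 was called in no comparison.

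The difference between the croton oil responses, LC-DTA minus LC-DTR, was called for 8 of 40 collagens, 3 higher and 5 lower, against 23.1% of all genes, 10.5% higher and 12.6% lower. The median was -0.027 over the collagens and -0.021 over all genes. No fibrillar gene was called by limma, and 1 was higher and 0 lower at an unadjusted p under 0.05, against 17.2 and 19.7% of all genes. Higher were Col6a3 by 0.90 ± 0.28 (adjusted p = 0.0343), Col18a1 by 0.83 ± 0.27 (adjusted p = 0.0369) and Col8a1 by 0.66 ± 0.22 (adjusted p = 0.0448), and for each of them the log2 difference with croton oil was negative in LC-DTR ears and higher in LC-DTA ears. Lower were Col20a1 by 0.79 ± 0.17 (adjusted p = 0.00691), Col4a1 by 0.76 ± 0.21 (adjusted p = 0.0198), Col9a3 by 0.60 ± 0.15 (adjusted p = 0.0139), Col4a6 by 0.71 ± 0.22 (adjusted p = 0.0318) and Col9a2 by 0.77 ± 0.26 (adjusted p = 0.0457). Col20a1, a FACIT collagen, was at 2.80, 3.53, 3.01 and 3.32 TPM in LC-DTA croton oil ears, 5.05, 6.90 and 5.20 in LC-DTA vehicle ears, 4.34, 4.12, 3.83 and 4.09 in LC-DTR croton oil ears and 4.68, 3.63 and 3.02 in LC-DTR vehicle ears, and fell in LC-DTA ears by 0.68 ± 0.12 (adjusted p = 0.000374). Of these, Col20a1 was called under all 25 alternatives tried, Col9a3 was lost in 1 and Col4a1 in 2, and the other 5 were lost in 9 to 13. Without LC-DTR vehicle sample 3, 5 collagens were called, 0 of them higher, against 19.4% of all genes, 9.21% higher and 10.2% lower. The count was likewise 3 to 5 without LC-DTA croton oil sample 2 or 3, LC-DTA vehicle sample 1, 2 or 3, or LC-DTR croton oil sample 2 or 4, and up to 10 without other samples.

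**Figure D4:**
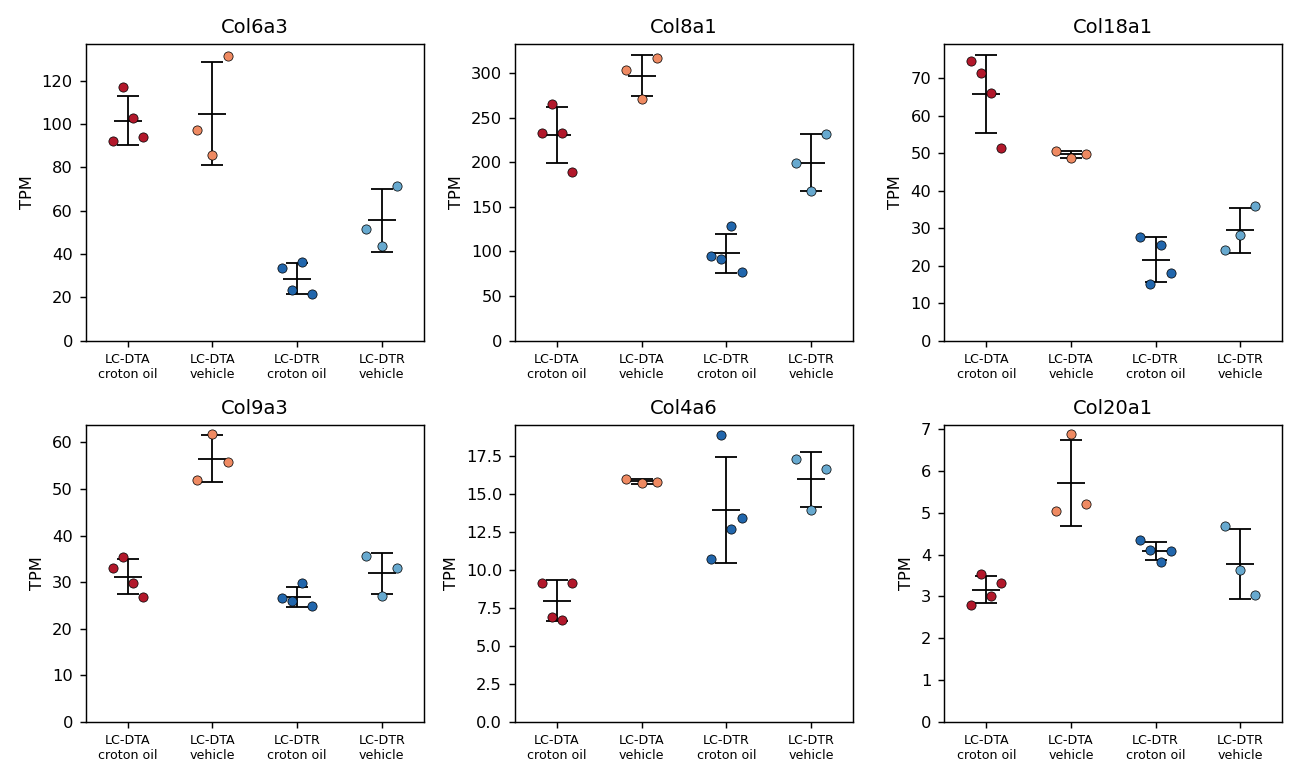
TPM in each sample (points) by group, with the mean and SD (bars), of 6 of the 8 collagen genes whose croton oil response differed between the genotypes. The LC-DTR croton oil samples of Col6a3 and Col8a1 lie below their vehicle samples without overlap, and the LC-DTA croton oil samples of Col9a3, Col4a6 and Col20a1 do so against theirs.

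Ratios of TPM within a sample were taken for 11 pairs of collagen genes, which encode chains of 1 molecule or, as for type III over type I and types IX and XI over type II, of collagens that build fibrils together. They were compared in the 4 comparisons of 2 groups, 44 in all, by a 2-sided exact permutation test. The smallest p the test can give is 0.0286 with 4 against 4 samples, 0.0571 with 4 against 3 and 0.1 with 3 against 3. With these limits no p adjusted by Benjamini-Hochberg over the 44 could fall under 0.05, and the lowest was 0.21. The test therefore cannot decide whether a ratio differed between groups. The groups overlapped in 30 of the 44 and did not in 14. Col4a1 over Col4a2, the pair with overlapping starts, was 1.37, 1.39, 1.54 and 1.48 in LC-DTA croton oil ears, 1.253, 1.23 and 1.22 in LC-DTA vehicle ears, 1.71, 1.48, 1.57 and 1.67 in LC-DTR croton oil ears and 1.18, 1.20 and 1.18 in LC-DTR vehicle ears. Croton oil samples lay above vehicle samples in both genotypes (exact p = 0.0571 each, adjusted 0.21). Col6a3 over Col6a1 was 0.298, 0.328, 0.343 and 0.323 in LC-DTA croton oil ears, 0.222, 0.200 and 0.246 in LC-DTA vehicle ears, 0.197, 0.136, 0.176 and 0.156 in LC-DTR croton oil ears and 0.220, 0.226 and 0.241 in LC-DTR vehicle ears. It lay above vehicle after croton oil in LC-DTA ears and below it in LC-DTR ears (exact p = 0.0571 each, adjusted 0.21). Col3a1 over Col1a1 was 1.88, 1.82, 1.86 and 1.87 in LC-DTA croton oil ears, 1.73, 1.59 and 1.46 in LC-DTA vehicle ears, 1.002, 1.27, 1.09 and 1.14 in LC-DTR croton oil ears and 1.18, 1.13 and 1.90 in LC-DTR vehicle ears. After croton oil it was higher in LC-DTA than in LC-DTR samples without overlap (exact p = 0.0286, adjusted 0.21), and LC-DTR vehicle sample 3 again lay apart from its group. Col1a1 over Col1a2 ranged over the 14 samples from 0.587 to 0.743, and its groups did not overlap in 1 comparison, with LC-DTA above LC-DTR samples under vehicle (exact p = 0.1).

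**Figure D5:**
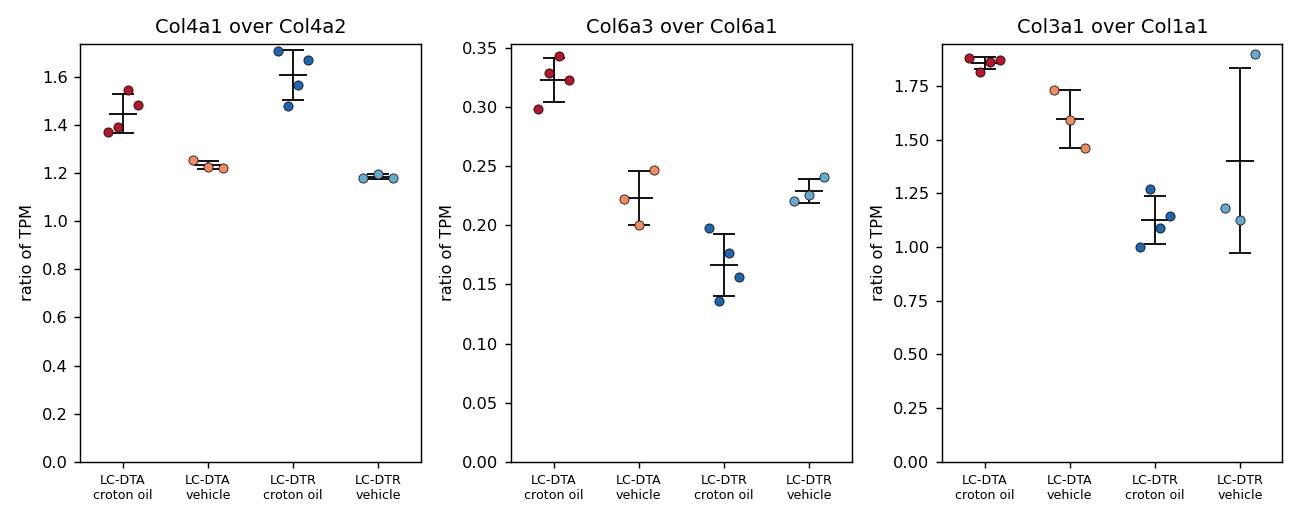
Ratio of TPM of 2 collagen chains in each sample (points) by group, with the mean and SD (bars). Col4a1 over Col4a2 was higher after croton oil in both genotypes, Col6a3 over Col6a1 lay above vehicle in LC-DTA and below it in LC-DTR croton oil samples, and Col3a1 over Col1a1 was above 1.80 in all LC-DTA croton oil samples.

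The genes that make, cut and bind collagen were read from lists, whose pairs of values below are for LC-DTA under vehicle and after croton oil, or for croton oil in LC-DTA and then LC-DTR ears, as log2 differences. The medians over all genes were 0.097, 0.093, -0.090 and -0.060 in these 4 comparisons. Of all genes 19.1, 34.3, 24.2 and 22.1% were called higher in them, and 5.34, 18.0, 34.5 and 29.5% lower. The counts of each list are to be read beside these shares. Of 29 tested genes for synthesis, folding and crosslinking, 19 were higher and 0 lower in LC-DTA under vehicle, with a median of 0.58, and 19 higher and 1 lower after croton oil, with a median of 0.42. Pcolce, which enhances removal of the procollagen tail, was higher by 1.35 and 1.40, and Adamts2, which cuts the other end, by 1.33 and 0.71. Serpinh1, the collagen chaperone, was higher by 0.68 and 1.28. P4hb, a subunit of the enzyme that hydroxylates proline, was higher after croton oil by 0.52 and had a value of 0.059 under vehicle. Tll1, a procollagen protease, was the gene lower after croton oil, at -0.63. With croton oil 18 were lower and 4 higher in LC-DTA ears (median -0.43), and 13 lower and 2 higher in LC-DTR ears (median -0.27). Adamts14 fell in both, by 1.37 and 0.91. Tll1 rose in both, by 0.77 and 1.56, and the crosslinking enzyme Lox rose in LC-DTR ears by 0.85 with a value of 0.051 in LC-DTA ears. The responses differed for 4 of 29, a smaller share than the 23.1% of all genes. They were higher for P4hb (0.46) and lower for P4ha2 (-0.72), Lox (-0.80) and Tll1 (-0.79).

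Of 8 genes for breakdown and uptake, 6 were higher and 0 lower in LC-DTA under vehicle (median 0.73), among them the collagenase Mmp13 by 1.11 and Ctsk, a lysosomal collagen protease, by 1.08. Mmp13 was near the filter, averaging 2.97 TPM in LC-DTA and 0.781 in LC-DTR vehicle ears, whereas Ctsk averaged 219 and 104. After croton oil 4 were higher and 0 lower (median 0.41). Croton oil was followed by 2 higher and 5 lower in LC-DTA ears (median -0.48) and by 3 higher and 2 lower in LC-DTR ears (median 0.17). Mmp8 and Mmp9, proteases stored by neutrophils, rose in both, Mmp8 by 2.06 and 1.87 and Mmp9 by 1.46 and 2.09. Neutrophil markers rose beside them, 5 of 5 in each genotype. They summed to 435 to 663 TPM in LC-DTA croton oil ears, 33.4 to 63.9 in LC-DTA vehicle ears, 259 to 764 in LC-DTR croton oil ears and 25.5 to 68.3 in LC-DTR vehicle ears. Mrc2, an uptake receptor for collagen, fell by 0.70 and 1.04. Mmp2 and Mmp14 differed in their responses (-0.65 and -0.68).

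Of 8 collagen receptor genes tested, 4 were higher and 3 lower with croton oil in LC-DTA ears (median 0.25). In LC-DTR ears 2 were higher and 2 lower (median 0.23), close to the 22.1% and 29.5% of all genes. Itga2, the integrin alpha-2 chain of keratinocytes and platelets, rose by 1.00 and 0.82, and Itgb1, its beta-1 partner, by 0.51 and 0.64. Itga11, a fibroblast receptor for fibrillar collagen, fell by 0.66 and 0.69. In LC-DTA ears 4 were higher and 0 lower under vehicle (median 0.32), and 5 higher and 2 lower after croton oil (median 0.34), with Ddr2, a receptor tyrosine kinase for fibrillar collagen, higher by 0.76 and 0.98.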

How the data were processed

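mRNA of 14 whole mouse ears was sequenced from Illumina TruSeq Stranded mRNA libraries of RNA purified on Qiagen RNeasy columns, per the labels' protocols. The authors deposited TPM per gene, and per the submitters' processing notes cutadapt, HISAT2, Subread and featureCounts were used with mm10, with versions and order not given in the sources used here. Depth cannot be read from TPM, which leaves no counting interval, and a change in a few abundant genes moves the TPM of all others.

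From 24062 rows, 27 named as dates (0.124 to 0.145% of the TPM) were left out. Genes with at least 1 TPM in at least 3 samples, 14693 of 24035, were fitted on log2(TPM + 1) with limma 3.58.1 in R 4.3.3, with 4 group means over all 14 samples and a mean-variance trend. P-values were adjusted by Benjamini-Hochberg within a comparison over all genes tested (threshold 0.05). The fit was also run on simulated data, with results not given here. Tables and figures were made with Python 3.11.15, pandas 2.3.3, numpy 2.4.6 and matplotlib 3.10.9.

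The collagen genes, their classes, the companion lists and the marker lists were chosen with earlier results of these data known. Values of every sample are given for the 3 collagens of each class (6 of the others) with the highest mean TPM, for up to 6 called genes per comparison of groups with the largest log2 difference that averaged 5 TPM or more in either group, and for the 5 lowest p-values in the difference of responses. For the companion lists up to 4 genes with the lowest p in a comparison are named. Other genes, given by means or ranges, were chosen after their values were seen.

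Alternatives were other pseudocounts (0.1 and 5), no filter or a filter of 5 TPM, median ratio scaling, quantile normalization, limma without the trend or with robust estimation, a replicate block, only the groups compared, and fits without 1 or 2 samples.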

Additional observations from a re-analysis of the deposited data

Results flagged for a closer look

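In 52 sets of 4 values, a named collagen in the samples of a croton oil group, 2 held a sample far from the other 3 by Dixon's criterion, which chance meets in about 1 in 20 sets. Col11a1 was at 7.65 TPM in LC-DTR croton oil sample 4, with the other 3 between 9.60 and 9.63 TPM. Col8a2 was at 40.9 TPM in LC-DTR croton oil sample 3, with the other 3 between 26.2 and 28.4 TPM.

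For 8 of 40 collagens, against 23.1% of all genes, the croton oil response differed between the genotypes in limma's interaction term. Of these calls, that of Col20a1 was kept under all 25 alternatives, and the count fell to 3 without LC-DTA croton oil sample 2 or LC-DTA vehicle sample 2. The difference, LC-DTA minus LC-DTR on the log2 scale, was 0.90 for Col6a3, 0.83 for Col18a1 and 0.66 for Col8a1. It was -0.79 for Col20a1, -0.77 for Col9a2, -0.76 for Col4a1, -0.71 for Col4a6 and -0.60 for Col9a3.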

How the results depend on the processing

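Counts of called collagens with 1 sample left out at a time ranged from 10 to 26 for croton oil in LC-DTR ears, 13 to 26 for croton oil in LC-DTA ears, 16 to 27 for the genotypes under vehicle, 23 to 29 for the genotypes after croton oil and 3 to 10 for the difference of responses. Over all genes these counts ranged from 6425 to 7698, 7248 to 8925, 1780 to 3775, 6584 to 7923 and 2220 to 3575, with 7577, 8619, 3595, 7688 and 3389 in all samples. The lowest counts for the genotypes under vehicle were without LC-DTR vehicle sample 2 (1780 genes) and without LC-DTA vehicle sample 3 (2123 genes). Without LC-DTA croton oil samples 3 and 4, 12 collagens were called for croton oil in LC-DTA ears (6935 of all genes, 47.2%) and 3 for the difference of responses (2341 genes, 15.9%). With no filter 3 were called for that difference (3252 of 20712 genes, 15.7%); the cause was not tested.

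Whether the replicate numbers pair the samples was not stated in the labels. Of 19 same-numbered pairs 2 had a correlation of their deviations from the group means over 0.1 (range -0.32 to 0.13). Differently numbered pairs reached -0.39 and 0.40, so these correlations cannot decide whether samples were paired. With a replicate block, 16, 20, 25, 27 and 7 collagens were called in the same order of comparisons, and 6445, 7733, 2879, 7048 and 2660 genes. Of 2202 alternative values of 85 calls of named collagens, 1967 stayed called in the same direction, 235 lost the call and 0 changed sign. The difference of responses could not be fitted in the groups of 1 comparison alone. Depth is unknown, so the counting error of collagens near 1 TPM cannot be given.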
